A study of Mus musculus with 6 samples.

Results

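The lung transcriptomes of Zpbp2 KO and WT mice were examined for 32 genes that mark B cells or act in them, chosen by their symbols out of the 47069 genes counted. Genes of the immunoglobulin chains themselves were not among the 32. They comprised 2 signalling subunits of the B cell receptor (Cd79a and Cd79b), 8 co-receptors and surface proteins, 3 inhibitory receptors, 3 Fc receptor-like proteins, 7 cytoplasmic signalling proteins, 7 transcription factors and 2 proteins of the endoplasmic reticulum. Lungs were taken at ZT10, 10 h after lights on, from 3 WT mice (WT4, WT5 and WT6) and 3 KO mice (KO4, KO5 and KO6), with 1 mRNA library per mouse. WT mice were C57BL/6J. KO mice lacked exons 1 to 3 of Zpbp2 in every cell, in a strain kept on the C57BL/6J background in the same colony as the WT mice. All were adult and housed in a light/dark cycle, and the labels name no treatment. The KO strain's name (B6.129S7-Zpbp2 tmZuk/Mmjax) records that the allele was made in another strain, so the deletion and sequence linked to it cannot be told apart in these groups.

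B cells recognise antigen through a surface immunoglobulin that signals through Cd79a and Cd79b to kinases such as Blk and Btk and the adaptor Blnk. Inhibitory lectins such as Cd22 dampen that signal, and transcription factors led by Pax5 and Ebf1 keep the B cell programme on until Prdm1 replaces it with that of antibody-secreting plasma cells. In the lung, B cells are found in the blood of the vessels, scattered in the tissue and in lymphoid follicles along the airways, and lymph nodes lie beside the large bronchi.

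The libraries held from 19981428 to 46796908 counted reads, so that 3 counts corresponded to 0.0629 to 0.148 CPM, the count scaled to the size of the library. Zpbp2 itself had at most 2 counts in any WT mouse and 0 in each KO mouse, too few to check the genotype at this depth. The 8 markers of lung tissue summed to 35038 to 54460 CPM per mouse. Xist was at 715 to 994 CPM in all 6 mice, and 4 genes of the Y chromosome together had 24 counts in KO5 and at most 1 in any other mouse. The library of KO5 was the deepest and stood apart from the other 2 KO libraries. KO5 was at least 2-fold above each of the other 5 mice in 190 of the 17037 genes tested (1.12%), and 18 of the 190 were among the 32 B cell genes. A further 17 of the 190 were immunoglobulin genes, a family of near-identical copies between which counting can split reads. Genes of skeletal muscle were also high in KO5. In a list of 12 such genes, chosen after the values of KO5 had been seen, 11 were at least 2-fold above every other mouse in KO5, and the summed level of the list was 158 CPM against 16.6 to 37.7 CPM in the other 5 mice. Myh4, a myosin of fast muscle fibres, had 242 counts in KO5 and 0 in each other mouse. Of 6 macrophage genes typical of lymph node and spleen, chosen at the same stage, 4 were at least 2-fold above every other mouse in KO5, among them Cd5l at 13.5 CPM against 0.288 to 1.37 CPM. Of 6 white fat cell genes 1 was. The part of such tissue in the B cell values was not tested, and the log2 fold changes of the 32 genes are given below with and without KO5, as are the counts of calls in other lists where leaving out KO5 changed them.

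All 32 B cell genes had enough reads to be tested, with 20 to 9286 counts per gene and mouse. Their log2 fold change of KO against WT was above 0 in 31 and below 0 in 1 (Vpreb3), with a median of 1.77 where the median of all genes tested was 0.00295. At an adjusted p-value of at most 0.05 (edgeR's quasi-likelihood test, Benjamini-Hochberg adjustment over all genes tested), 8 of the 32 were higher in KO mice (Rasgrp3, Cd38, Cd83, Btk, Cd180, Cd72, Pou2af1 and Fcrl5), where 3.72% of all genes tested were. None was lower, where 2.67% of all genes were. The number higher was 22 by DESeq2 (6.47% of all genes), 26 by edgeR's exact test (5.53%) and 24 by the quasi-likelihood test without a filter on low counts (2.96%), and the number lower was 0 by both DESeq2 and the exact test. With the additional threshold of a log2 fold change of at least 1.5, 4 remained (Cd180, Cd72, Pou2af1 and Fcrl5), where 0.575% of all genes passed. An unadjusted p under 0.05 was reached by 27 of the 32, all of them higher, where 13.9% of all genes reached it in that direction. In 28 of the 32 the 3 KO values all lay above the 3 WT values, which was the case for 17.0% of all genes tested. Whether a B cell gene is higher because the lung held more B cells or because each cell held more of its RNA cannot be told apart in whole-lung RNA.

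**Figure D1:**
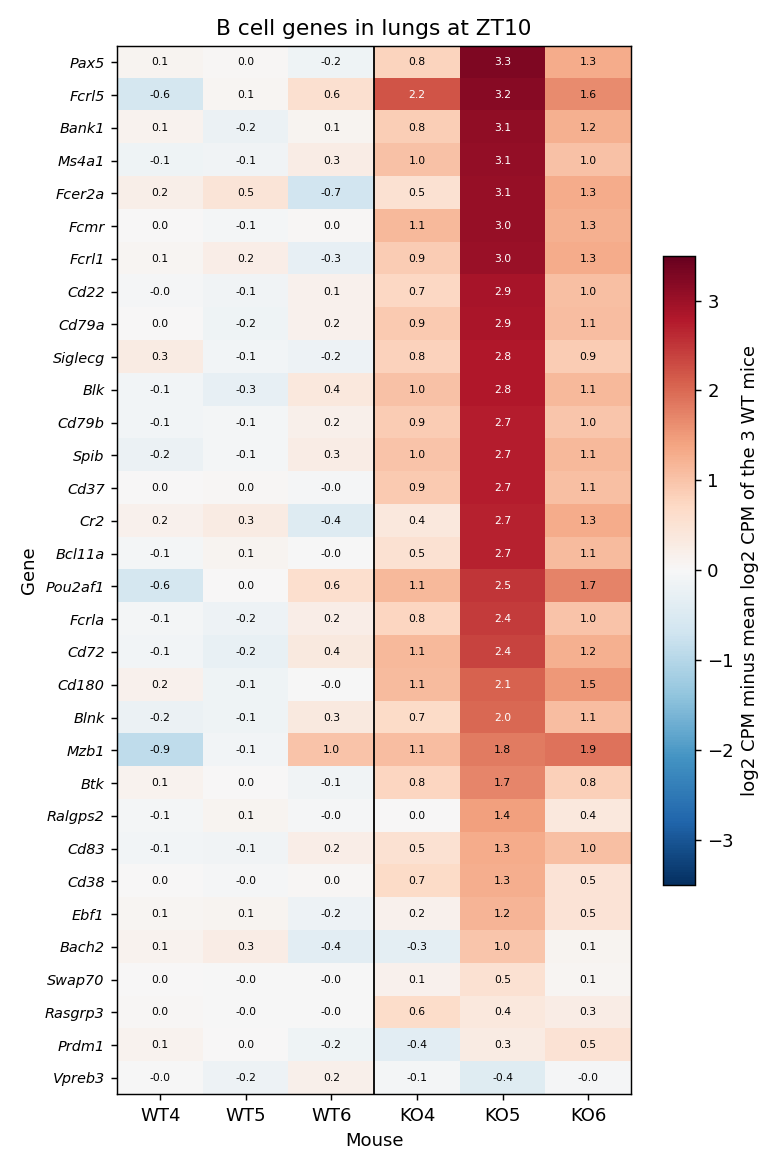
Level of the 32 B cell genes in each mouse, as log2 CPM minus the mean log2 CPM of the 3 WT mice (colour and printed value), with genes ordered by KO5 and a line between WT and KO mice. KO5 is the darkest column, KO4 and KO6 are paler but mostly above 0, and the lowest rows (Rasgrp3, Swap70, Prdm1 and Vpreb3) stay near 0 in KO5 too.

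The 3 KO mice were not alike in these genes. Relative to the WT mean, the median level of the 32 genes was 1.70-fold in KO4, 5.86-fold in KO5 and 2.09-fold in KO6. KO5 was the highest of the 6 mice in 28 of the 32, KO6 in 2, KO4 in 1 and a WT mouse in 1. In 22 genes KO5 was at least 2-fold above the mean of KO4 and KO6, and in 4 of these at least 4-fold (Pax5, Fcer2a, Ms4a1 and Bank1). When KO5 was left out, the median log2 fold change fell to 0.90, with a median of all genes of -0.00147, while the number of B cell genes called higher went up to 18, where 3.49% of all genes tested were called. None was lower, where 1.98% of all genes were, and 1 of the 18 (Fcrl5) kept a log2 fold change of at least 1.5. The calls with and without KO5 shared 5 genes (Cd38, Btk, Cd180, Cd72 and Fcrl5). Of these 2 fits, another 13 genes were called in the one without KO5, 3 in the one with it (Rasgrp3, Cd83 and Pou2af1), and 11 in neither. The number of calls also depended on the other mice. It was 0 when KO6, WT4, WT5 or WT6 was left out and 21 when KO4 was (4.55% of all genes), by the same quasi-likelihood test. In the 4 fits with 0 calls, between 1 and 254 genes of all those tested were called. In these fits 24 to 29 of the 32 genes had an unadjusted p under 0.05. The share of all genes at that unadjusted p was not taken for these fits, so the 24 to 29 cannot be set against it. Each of the 8 genes called with all mice was called in 1 or 2 of the 6 fits without a mouse.

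**Figure D2:**
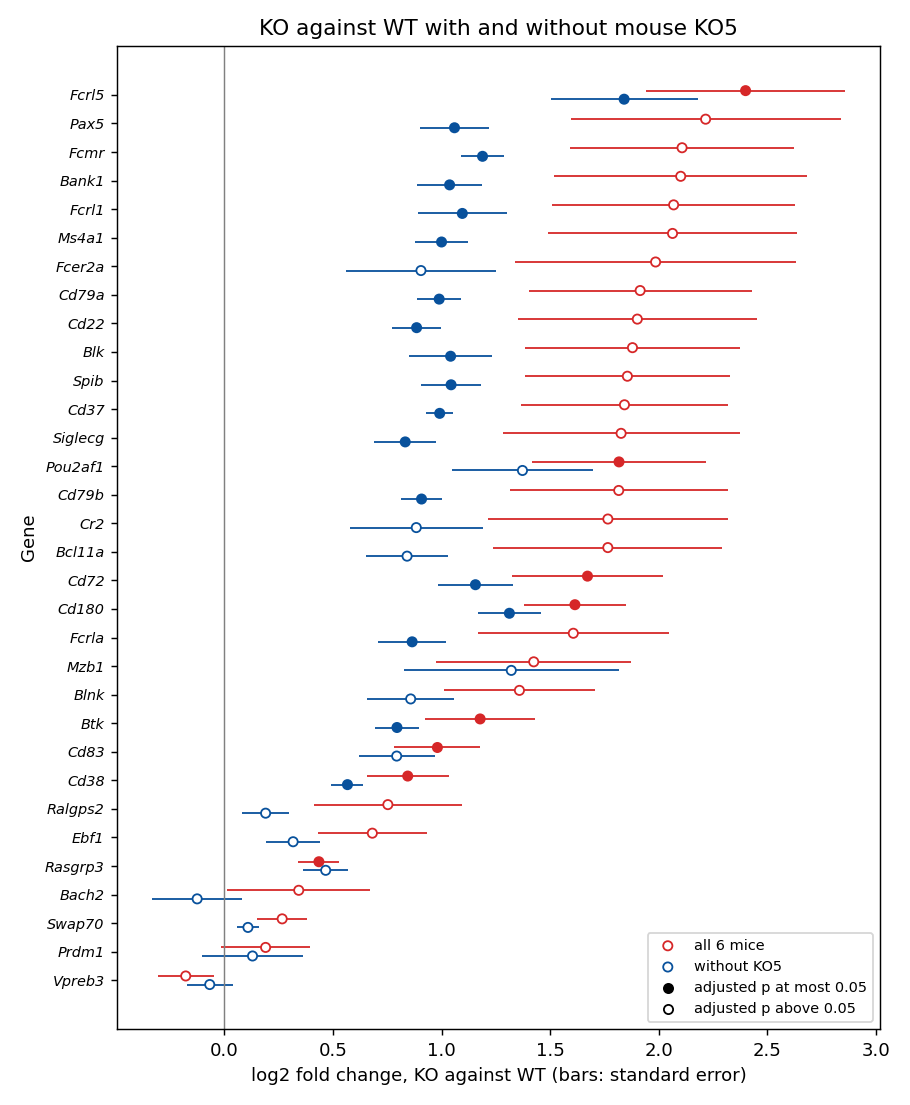
Log2 fold change of KO against WT mice for the 32 B cell genes (points, with bars of 1 standard error), with all 6 mice in red and without KO5 in blue, and filled points where the adjusted p is at most 0.05. Without KO5 nearly all fold changes move towards 0 and their bars shorten, so that 18 points are filled in blue and 8 in red.

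The genes were sorted into 16 listed as largely restricted to B cells or plasma cells and 16 that other lung cells also use. Examples of the shared genes are Btk in myeloid cells, Ebf1 in stromal cells and Rasgrp3 in endothelium. The restricted genes include Cr2, which follicular dendritic cells also carry. They also include Vpreb3, which did not follow the others (0.954-fold of the WT mean in KO4, 0.747-fold in KO5 and 0.963-fold in KO6). In the restricted genes the median level relative to the WT mean was 1.80-fold in KO4, 7.32-fold in KO5 and 2.24-fold in KO6. In the shared genes it was 1.56-fold, 2.88-fold and 1.92-fold. By their median the restricted genes lay farther from WT in KO5. Of them 2 were called higher with all mice (12 without KO5), against 6 of the shared genes in each fit. The difference between the restricted and shared genes was not tested.

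Promoters of 27 of the 32 genes were read from RefSeq (GRCm38.p6), as windows from 250 bases before to 50 bases after the annotated start. They were searched on both strands for the octamer ATGCAAAT, which is bound by the Oct factors that Pou2af1 assists, for the EBF1 motif TCCCNNGGG and for the ETS-IRF element GGAANNGAA, which is bound by Spib or its relative Spi1 together with Irf4 or Irf8. The octamer was in 2 of the 27 genes (7.41%, against 1.97% of 27025 genes with a window), the EBF1 motif in 1 (3.70%, against 7.48%) and the ETS-IRF element in 5 (18.5%, against 9.42%, in Bach2, Bank1, Bcl11a, Cd22 and Cd38). A match is a description of these letters only. The 250 bases before the start of Cd22, Blnk and Vpreb3 are shown because they hold the EBF1 and octamer matches, with the matched letters in capitals and positions counted back from the base before the start, which is -1. In Cd22 (chr7:30879029-30879278, minus strand) the first capitals are 3 overlapping ETS-IRF matches that begin at -126, -121 and -116, and the second are overlapping EBF1 matches on opposite strands that begin at -49 and -48. In Blnk (chr19:40994222-40994471, minus strand) the octamer begins at -130, and in Vpreb3 (chr10:75948050-75948299, plus strand) at -45, both in the reverse orientation. The RefSeq starts of these 3 genes lie inside the spans that GENCODE gives them, so transcripts with an earlier start are not covered.
Cd22: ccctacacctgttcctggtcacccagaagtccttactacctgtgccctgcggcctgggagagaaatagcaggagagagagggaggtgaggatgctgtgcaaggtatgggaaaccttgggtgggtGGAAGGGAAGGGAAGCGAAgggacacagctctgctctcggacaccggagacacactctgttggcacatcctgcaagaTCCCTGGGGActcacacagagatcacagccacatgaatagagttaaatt
Blnk: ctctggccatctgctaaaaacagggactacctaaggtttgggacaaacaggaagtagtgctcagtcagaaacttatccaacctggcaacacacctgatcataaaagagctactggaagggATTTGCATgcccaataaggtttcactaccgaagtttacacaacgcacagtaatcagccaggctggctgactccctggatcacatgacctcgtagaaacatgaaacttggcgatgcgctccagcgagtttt
Vpreb3: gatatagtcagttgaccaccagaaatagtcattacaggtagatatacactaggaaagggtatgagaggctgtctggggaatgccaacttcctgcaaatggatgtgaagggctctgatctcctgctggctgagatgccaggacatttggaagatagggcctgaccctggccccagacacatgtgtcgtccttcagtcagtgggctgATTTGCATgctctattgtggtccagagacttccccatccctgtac

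For each set of genes from here on, the shares over all genes are those given above. They were 3.72% higher with all mice, 3.49% higher without KO5, and 17.0% with all KO values above all WT values. Neither signalling subunit of the B cell receptor overlapped between the groups. By the quasi-likelihood test both missed the threshold with all mice and passed it without KO5 or without KO4, and both passed it with all mice by DESeq2 and by edgeR's exact test. Cd79a (ENSMUSG00000003379, chromosome 7 from 24897381 to 24902197, plus strand) measured 19.2, 17.2 and 21.5 CPM in WT4, WT5 and WT6 and 36.6, 139.5 and 40.5 CPM in KO4, KO5 and KO6. The groups did not overlap, KO4 and KO6 were alike, and KO5 was 3.62-fold above their mean. The log2 fold change of Cd79a was 1.91 (standard error 0.513, adjusted p = 0.0716 by edgeR's quasi-likelihood test) with all mice and 0.99 (standard error 0.102, adjusted p = 0.00954) without KO5. Cd79b (ENSMUSG00000040592, chromosome 11 from 106311341 to 106314762, minus strand), its partner in the receptor, measured 17.5, 17.7 and 21.0 CPM in WT mice and 34.3, 125.4 and 36.2 CPM in KO mice in the same order. It followed Cd79a closely in every mouse. The log2 fold change between the groups was 1.82 (adjusted p = 0.0775) with all mice and 0.91 (adjusted p = 0.00954) without KO5.

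Of the 8 co-receptors and surface proteins, 3 were called higher with all mice (Cd180, Cd83 and Cd38) and 5 without KO5, and in all 8 the groups did not overlap. Ms4a1 (ENSMUSG00000024673, chromosome 19 from 11249675 to 11266241, minus strand), which encodes the B cell surface protein CD20, measured 18.4, 18.8 and 24.3 CPM in WT mice and 41.4, 172.8 and 41.1 CPM in KO mice. KO4 and KO6 agreed to within 1 CPM, while KO5 was 4.19-fold above their mean. The log2 fold change of Ms4a1 was 2.06 (adjusted p = 0.0789) with all mice and 1.0 (adjusted p = 0.0127) without KO5. Cr2 (ENSMUSG00000026616, chromosome 1 from 195136811 to 195176716, minus strand) encodes complement receptors of mature B cells and follicular dendritic cells. It measured 8.01, 8.77 and 5.27 CPM in WT mice and 9.34, 46.5 and 17.7 CPM in KO mice. KO4 lay just above the highest WT mouse. By the quasi-likelihood test Cr2 passed the threshold neither with all mice (log2 fold change 1.77, adjusted p = 0.104) nor without KO5 (0.88, adjusted p = 0.148). With all mice the adjusted p of Cr2 was 0.0236 by the exact test and 0.0831 by DESeq2.

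Cd180 (ENSMUSG00000021624, chromosome 13 from 102693558 to 102739629, plus strand), a receptor related to Toll-like receptor 4 that B cells and some myeloid cells carry, had the lowest adjusted p of the 32 genes. It measured 11.2, 9.06 and 9.83 CPM in WT mice and 21.5, 41.7 and 28.5 CPM in KO mice. All 3 KO mice were well apart from WT, and KO5 exceeded the mean of the other KO mice 1.67-fold. The log2 fold change was 1.61 (standard error 0.235, adjusted p = 0.0189) with all mice and 1.31 (adjusted p = 0.0114) without KO5. Cd83 (ENSMUSG00000015396), an activation marker of B cells and dendritic cells, measured 12.8, 12.6 and 16.2 CPM in WT mice and 19.9, 33.6 and 28.4 CPM in KO mice. KO5 and KO6 were close to each other, and KO4 lay between them and WT. In the fit the log2 fold change was 0.98 (adjusted p = 0.0370) with all mice and 0.79 (adjusted p = 0.0518) without KO5. Cd38 (ENSMUSG00000029084), an enzyme of the cell surface that breaks down NAD, measured 36.8, 35.1 and 37.0 CPM in WT mice and 57.6, 86.8 and 50.2 CPM in KO mice. The WT mice were within 2 CPM of each other and far below every KO mouse. Between KO and WT mice the log2 fold change was 0.84 (adjusted p = 0.0468) with all mice and 0.57 (adjusted p = 0.0133) without KO5. The remaining surface genes were Fcer2a (the low-affinity IgE receptor CD23), Fcmr (the IgM receptor) and the tetraspanin Cd37. Their log2 fold changes were 1.99, 2.11 and 1.84 with all mice and 0.91, 1.19 and 0.99 without KO5, where Fcmr and Cd37 were called (adjusted p = 0.00611 and 0.00282) and Fcer2a was not (adjusted p = 0.182).

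**Figure D3:**
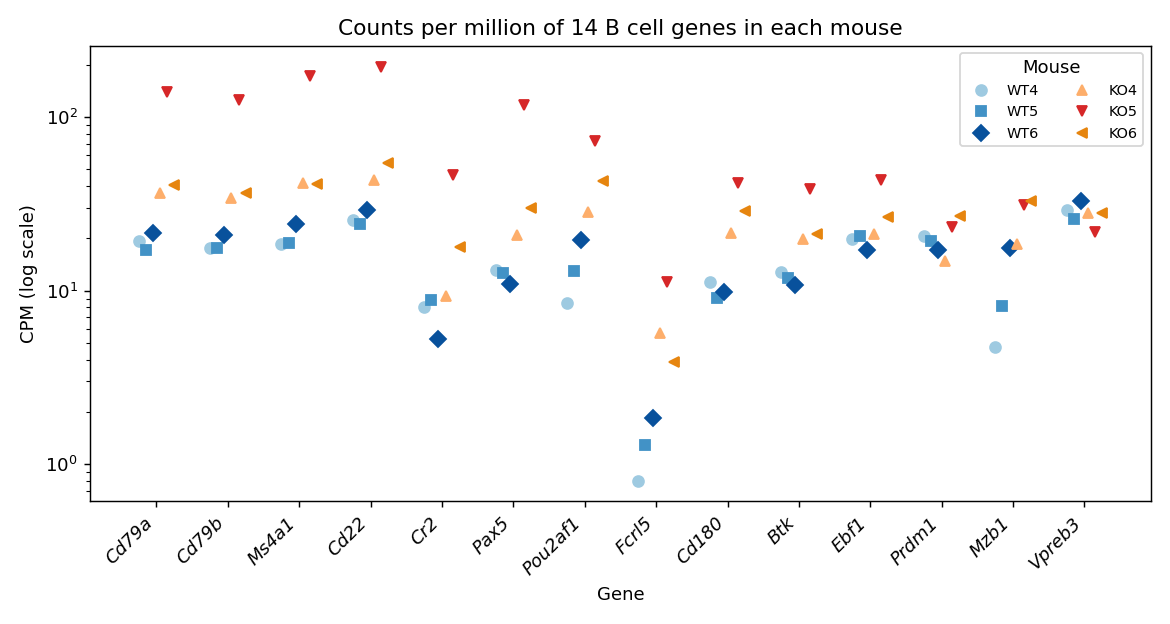
CPM (log scale) of 14 B cell genes in each of the 3 WT mice (blue) and 3 KO mice (orange and red), 1 point per mouse. KO5 is the top point from Cd79a to Ebf1 while KO4 and KO6 lie between it and WT, and the groups overlap in Prdm1 and Vpreb3.

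All 3 inhibitory receptors had KO values above WT in every mouse. Cd22 (ENSMUSG00000030577, chromosome 7 from 30865402 to 30880342, minus strand), a lectin for sialic acid that restrains receptor signalling, measured 25.6, 24.2 and 28.9 CPM in WT mice and 43.3, 194.4 and 54.2 CPM in KO mice. KO5 was 3.99-fold above the mean of KO4 and KO6. For Cd22 the log2 fold change was 1.90 (adjusted p = 0.0870) with all mice and 0.89 (adjusted p = 0.0129) without KO5. Cd72 (ENSMUSG00000028459, chromosome 4 from 43446462 to 43454628, minus strand), a C-type lectin receptor, measured 8.90, 8.05 and 12.2 CPM in WT mice and 21.1, 48.9 and 22.5 CPM in KO mice. KO4 and KO6 were alike here too, with KO5 above them. As a log2 fold change this was 1.67 (adjusted p = 0.0401) with all mice and 1.16 (adjusted p = 0.0190) without KO5. Its exons overlap those of Tesk1 on the opposite strand over 1423 bp, or 41.6% of its exon length, and the strand setting of the counting is not given in the sources used here. Siglecg, the other lectin for sialic acid, had a log2 fold change of 1.83 with all mice and 0.83 without KO5 (adjusted p = 0.0269). With all mice its adjusted p was 0.0934 by the quasi-likelihood test, 0.0559 by DESeq2 and 0.0138 by the exact test.

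Fcrl5 (ENSMUSG00000048031, chromosome 3 from 87435773 to 87500678, plus strand), a receptor-like protein of marginal zone B cells and plasma cells, had the largest log2 fold change of the 32 genes in both fits. It measured 0.805, 1.29 and 1.84 CPM in WT mice and 5.67, 11.2 and 3.90 CPM in KO mice, from 20 to 57 counts per WT mouse and 79 to 535 per KO mouse. Every KO mouse was at least 2-fold above every WT mouse, and here KO4 was the higher of the other 2 KO mice. In the fit the log2 fold change was 2.40 (standard error 0.459, adjusted p = 0.0327) with all mice and 1.84 (adjusted p = 0.0321) without KO5. Fcrl1 and Fcrla had log2 fold changes of 2.07 and 1.61 with all mice (adjusted p = 0.0728 and 0.0755) and of 1.10 and 0.86 without KO5 (adjusted p = 0.0334 and 0.0304), and both were called with all mice by DESeq2 and by the exact test.

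Of the 7 cytoplasmic signalling genes, Btk and Rasgrp3 were called with all mice and Btk, Blk and Bank1 without KO5. Btk (ENSMUSG00000031264, chromosome X from 134542336 to 134583570, minus strand), the kinase whose loss stops B cell development in humans, measured 12.7, 11.8 and 10.7 CPM in WT mice and 19.8, 38.3 and 21.1 CPM in KO mice. The groups were well separated, with KO4 and KO6 close together. Between KO and WT mice the log2 fold change was 1.18 (standard error 0.254, adjusted p = 0.0426) with all mice and 0.79 (adjusted p = 0.0129) without KO5. Rasgrp3 (ENSMUSG00000071042, chromosome 17 from 75435896 to 75529054, plus strand), which loads Ras with GTP, measured 90.0, 87.6 and 87.0 CPM in WT mice and 137.9, 113.7 and 106.4 CPM in KO mice. It was the only one of the 32 genes in which KO4 was the highest mouse, and KO5 was 0.931-fold the mean of KO4 and KO6. Its log2 fold change of 0.44 (adjusted p = 0.0431) became 0.47 (adjusted p = 0.0540) without KO5. The B cell kinase Blk and the scaffold Bank1 had log2 fold changes of 1.88 and 2.10 with all mice (adjusted p = 0.0690 and 0.0775) and 1.04 in both without KO5 (adjusted p = 0.0323 and 0.0175). The adaptor Blnk, the Ral exchange factor Ralgps2 and the Rac regulator Swap70 were called in neither of these fits. Their log2 fold changes were 1.36, 0.75 and 0.27 with all mice (adjusted p = 0.0641, 0.221 and 0.20) and 0.86, 0.19 and 0.11 without KO5 (adjusted p = 0.0597, 0.339 and 0.264).

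Among the transcription factors, Pax5 had the largest log2 fold change and Prdm1 the smallest with all mice, and Pou2af1 the largest and Bach2 the smallest without KO5. Pax5 (ENSMUSG00000014030, chromosome 4 from 44524757 to 44710487, minus strand), which fixes B cell identity, measured 13.1, 12.6 and 10.9 CPM in WT mice and 21.0, 116.7 and 29.9 CPM in KO mice. KO5 was 4.58-fold above the mean of the other KO mice, the largest such ratio of the 32 genes. For Pax5 the log2 fold change was 2.22 (standard error 0.622, adjusted p = 0.0801) with all mice and 1.06 (adjusted p = 0.0191) without KO5. Pou2af1 (ENSMUSG00000032053, chromosome 9 from 51213708 to 51240080, plus strand), the coactivator of Oct factors, measured 8.45, 12.9 and 19.5 CPM in WT mice and 28.5, 72.6 and 42.8 CPM in KO mice. The WT mice spread over more than 2-fold but stayed below every KO mouse. The log2 fold change between the groups was 1.82 (adjusted p = 0.0452) with all mice and 1.37 (adjusted p = 0.0601) without KO5. Spib and Bcl11a had log2 fold changes of 1.86 and 1.77 with all mice (adjusted p = 0.0628 and 0.0931) and of 1.04 and 0.84 without KO5 (adjusted p = 0.0140 and 0.0524).

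Ebf1 (ENSMUSG00000057098, chromosome 11 from 44617317 to 45008091, plus strand), which acts with Pax5 early in the B lineage and is also used by stromal cells, measured 19.9, 20.5 and 17.0 CPM in WT mice and 21.3, 43.6 and 26.5 CPM in KO mice. KO4 was within 1 CPM of the highest WT mouse. In the fit the log2 fold change was 0.68 (adjusted p = 0.147) with all mice and 0.32 (adjusted p = 0.188) without KO5. Bach2, a repressor that holds back plasma cell differentiation, overlapped between the groups and its log2 fold change of 0.34 (adjusted p = 0.565) turned to -0.13 (adjusted p = 0.767) without KO5. Prdm1 (ENSMUSG00000038151, chromosome 10 from 44437177 to 44528501, minus strand), the factor of plasma cells that T cells and other cells also use, measured 20.7, 19.3 and 17.1 CPM in WT mice and 14.7, 23.2 and 27.0 CPM in KO mice. KO4 was the lowest of all 6 mice and KO6 the highest. Between KO and WT mice the log2 fold change was 0.19 (adjusted p = 0.616) with all mice and 0.13 (adjusted p = 0.788) without KO5.

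The 2 genes of the endoplasmic reticulum behaved differently from each other. Mzb1 (ENSMUSG00000024353, chromosome 18 from 35647267 to 35649367, minus strand), a chaperone of marginal zone B cells and plasma cells, measured 4.75, 8.15 and 17.5 CPM in WT mice and 18.5, 30.9 and 32.9 CPM in KO mice. KO6 rather than KO5 was the highest, and the spread of the WT mice nearly reached KO4. As a log2 fold change this was 1.42 (standard error 0.449, adjusted p = 0.105) with all mice and 1.32 (adjusted p = 0.173) without KO5. Its exons share 695 bp, or 57.2% of their length, with the gene annotated as SPATA24 on the same strand, so that reads of the 2 genes may not be separable. Vpreb3 (ENSMUSG00000000903, chromosome 10 from 75943057 to 75949657, plus strand), which binds immunoglobulin chains during assembly, measured 28.9, 25.7 and 32.9 CPM in WT mice and 27.8, 21.8 and 28.1 CPM in KO mice. It was the only gene of the 32 in which KO5 was the lowest mouse. In the fit the log2 fold change was -0.18 (standard error 0.129, adjusted p = 0.433) with all mice and -0.07 (adjusted p = 0.749) without KO5. The exact two-sided permutation test of log2 CPM, which cannot go below 0.1 with 3 mice against 3, gave p = 0.1 for Mzb1 and p = 0.4 for Vpreb3.

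Levels per length of exon placed the genes on another scale. In WT mice Vpreb3 had the highest mean of the 32 genes, 33.9 RPKM (CPM per kilobase of exon), followed by Swap70 (16.7), Rasgrp3 (15.1), Cd79a (13.3) and Cd79b (13.1). Bcl11a (0.370 RPKM) and Fcrl5 (0.378 RPKM) were the lowest. In KO mice Cd79a had the highest mean (49.6 RPKM), with 25.1, 95.8 and 27.8 RPKM in KO4, KO5 and KO6, ahead of Cd79b (45.6 RPKM) and Vpreb3 (30.1 RPKM).

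The level of each gene was also divided by that of Cd79a in the same mouse, a description that shows which genes kept a fixed proportion to the receptor subunit. Of the other 31 genes, 9 kept a ratio that varied by at most 1.5-fold over the 6 mice (Cd79b, Cd22, Spib, Fcmr, Bank1, Blk, Ms4a1, Cd37 and Fcrla). Cd79b lay between 0.895 and 1.03 times Cd79a, and Cd22 between 1.18 and 1.41 times Cd79a. A further 5 varied by 1.5-fold to 2-fold and 17 by more than 2-fold. In 13 of these 17 the lowest ratio was in KO5. Vpreb3 went from 1.5, 1.49 and 1.53 times Cd79a in WT4, WT5 and WT6 to 0.761, 0.156 and 0.694 in KO4, KO5 and KO6. Swap70 went from 7.08, 7.80 and 6.28 to 4.08, 1.40 and 3.53.

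**Figure D4:**
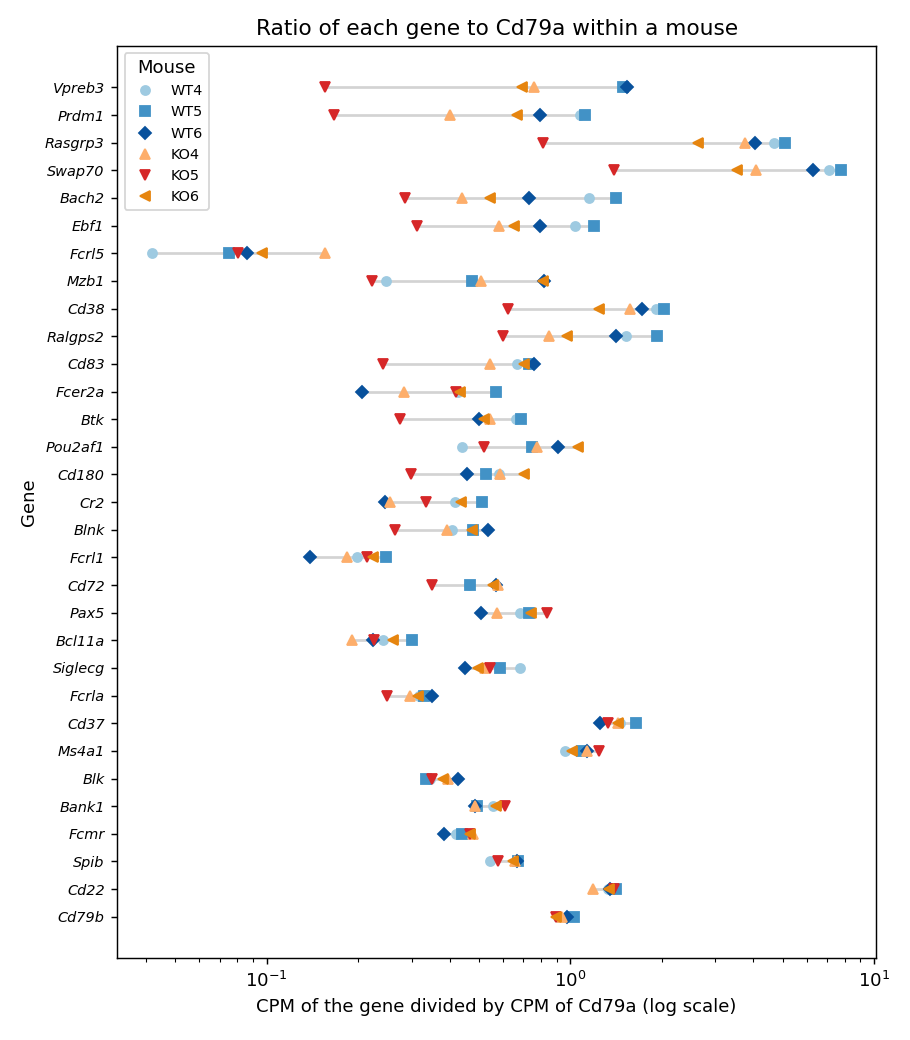
CPM of each of the other 31 B cell genes divided by the CPM of Cd79a in the same mouse (log scale), 1 point per mouse joined by a grey line, with the genes that varied most at the top. Cd79b, Cd22 and Spib at the bottom hold nearly 1 ratio in all 6 mice, and Vpreb3 at the top falls from about 1.5 in WT mice to 0.156 in KO5.

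Other genes of B cells were read from 3 further lists. The same background shares apply: 3.72% higher and 2.67% lower with all mice, and 3.49% higher and 1.98% lower without KO5. Of 25 other genes of the B cell receptor pathway, 8 were higher, 0 lower and 17 not called, and 13 were higher without KO5. Those with the largest log2 fold changes among the 8 were the adaptor Dok3 (1.32, adjusted p = 0.0422), the phospholipase Plcg2 (1.10, adjusted p = 0.0303), the exchange factor Vav1 (1.10, adjusted p = 0.0422) and the phosphatase Ptpn6 (1.09, adjusted p = 0.0322), which myeloid cells use as well. Of 21 genes of B cell survival, homing and antigen presentation, 3 were higher (Tlr9, Tnfrsf13b and H2-Oa, with log2 fold changes of 1.92, 1.71 and 1.55 and adjusted p = 0.0426, 0.0354 and 0.0459), 0 lower, and 8 higher without KO5. Of 12 further transcription factors, 5 were higher, led by Pou2f2 (1.92, adjusted p = 0.0148), which encodes the Oct factor of B cells, and Irf4 (1.54, adjusted p = 0.0176). The remaining 3 were Ikzf1, Spi1 and Relb, and Id3 was lower (-0.35, adjusted p = 0.0261). Without KO5 the numbers were 6 higher and 1 lower.

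Genes of particular stages of B cell life were mostly low or not called. Of 8 germinal centre markers 5 could be tested and 0 were called, with 0 at an unadjusted p under 0.05 and 0 by DESeq2 or edgeR's exact test. Among them Bcl6 had a log2 fold change of 0.12 (adjusted p = 0.557). Of 10 plasma cell markers 1 was higher (Irf4, which other cells use too) both with all mice and without KO5, while 3 were higher by DESeq2, 3 by the exact test and 4 at an unadjusted p under 0.05. Their log2 fold changes were above 0 in 6 and below 0 in 4. The largest was that of Tnfrsf17 (1.57, adjusted p = 0.0979 by the quasi-likelihood test), which had only 4 to 38 counts per mouse. Of 6 precursor markers only Il7r could be tested. Its log2 fold change was 0.68 with all mice (adjusted p = 0.0549, and called by DESeq2 and by the exact test) and 0.46 without KO5 (adjusted p = 0.0431). Rag1 and Rag2, which recombine immunoglobulin genes, had at most 2 counts in any mouse.

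Markers of other cells moved beside the B cell genes, and their part in the B cell results was not tested. All 7 pan-leukocyte markers were higher with all mice and without KO5, and their summed level was 532 to 613 CPM in WT mice and 854, 1458 and 1072 CPM in KO4, KO5 and KO6. Of 11 T cell markers 0 were called by edgeR's quasi-likelihood test (8 at an unadjusted p under 0.05, 6 by DESeq2 and 2 by the exact test), with log2 fold changes above 0 in all 11, among them Cd3d (0.98, adjusted p = 0.114) and Cd3e (0.85, adjusted p = 0.121), and their summed level was 70.4 to 82.2 CPM in WT mice and 85.5, 212.8 and 110.7 CPM in KO mice. Of 9 monocyte markers 8 were higher (7 without KO5), with the largest log2 fold changes in Adgre4 (2.31), Cd300e (2.02), Treml4 (1.76) and Cx3cr1 (1.52), with KO5 the lowest of the KO mice in each of these 4. Of 7 markers of lymphoid stroma and high endothelial venules, 4 were tested and 1 was higher (Glycam1, at no more than 3.61 CPM), while 0 were higher without KO5, where Glycam1 was too low to be tested. By DESeq2 2 genes of this list were higher, and 2 by the exact test. Cxcl13, the chemokine that draws B cells into follicles, measured 4.31, 5.42 and 9.44 CPM in WT mice and 14, 52.0 and 16.0 CPM in KO mice, with groups that did not overlap. By the quasi-likelihood test its log2 fold change was 2.10 (adjusted p = 0.0706) with all mice and 1.22 (adjusted p = 0.0677) without KO5. Red cell genes went the other way, with 5 of 6 lower in both fits, and Hbb-bs, a beta chain of haemoglobin, measured 1291, 1314 and 1205 CPM in WT mice and 576, 786 and 611 CPM in KO mice. The numbers higher were 3 of 6 neutrophil markers, 1 of 7 alveolar macrophage markers (Marco), 1 of 7 natural killer cell markers (Ncr1), 2 of 5 conventional dendritic cell markers (Flt3 and Xcr1, with Zbtb46 lower) and 0 of 5 plasmacytoid dendritic cell markers (1 by DESeq2 and 1 by the exact test, and 3 at an unadjusted p under 0.05). Without KO5 the quasi-likelihood numbers were the same except for conventional dendritic cell markers, of which 0 were higher and Zbtb46 was still lower. With all mice, 6 neutrophil markers were higher by DESeq2 and 4 by the exact test, with 6 at an unadjusted p under 0.05. For natural killer cell markers these numbers were 3, 1 and 5. Alveolar macrophage and conventional dendritic cell markers had the same numbers higher by DESeq2 and the exact test as by the quasi-likelihood test. The 8 markers of lung tissue had 0 calls and log2 fold changes below 0 in all 8, with 3 at an unadjusted p under 0.05 and 3 lower by DESeq2.

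**Figure D5:**
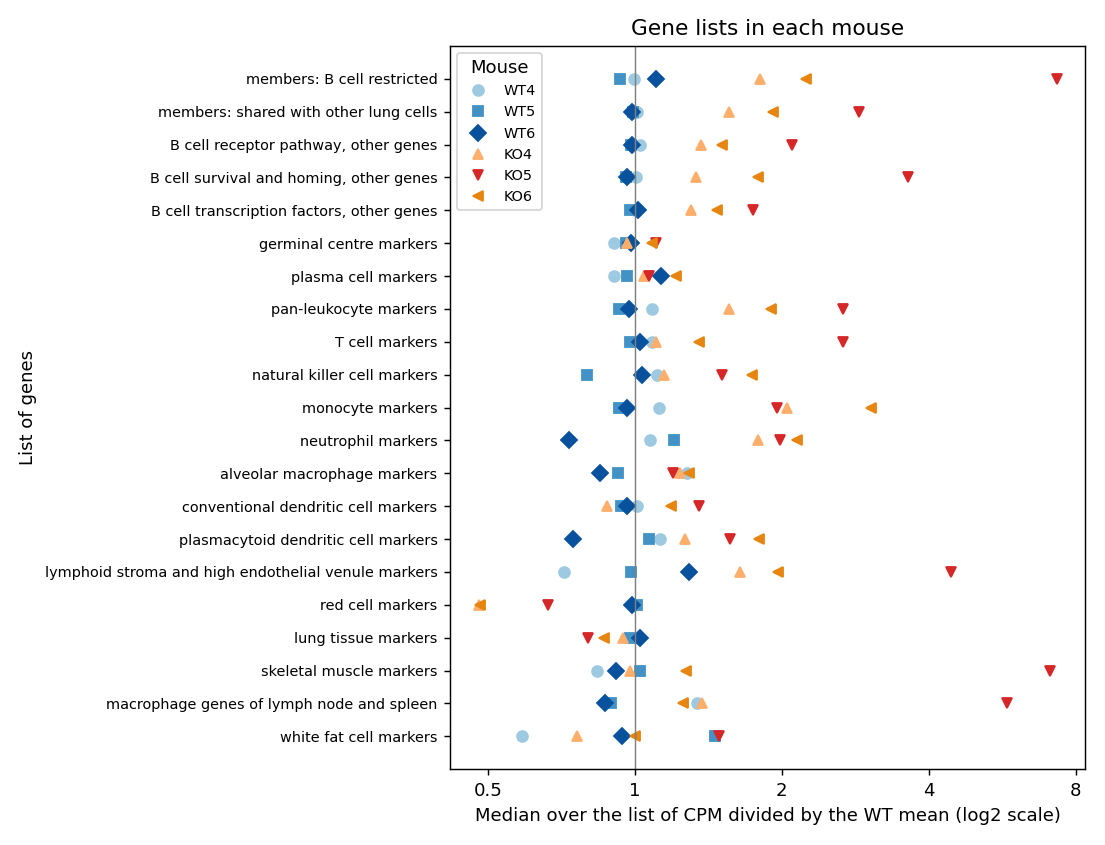
Median over each list of the CPM divided by the WT mean (log2 scale), 1 point per mouse, with WT mice in blue and KO mice in orange and red. The B cell restricted genes reach 7.32 in KO5 against 1.80 in KO4 and 2.24 in KO6, and monocyte genes are higher in all 3 KO mice. The skeletal muscle genes are far from 1 only in KO5, but that list was chosen after the values of KO5 had been seen.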

How the data were processed

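The authors extracted total RNA from lungs, prepared stranded mRNA libraries, and processed the reads with Trimmomatic 0.36, STAR 2.5.3a (GRCm38), Picard 2.9.0 and HTSeq 0.6.0, as the submitters' processing notes name them. They deposited whole read counts per Ensembl gene without normalization, 1 column per mouse. The annotation release and the strand setting of the counting are not given in the sources used here. Library totals ran from 19981428 to 46796908 counts. Counting floors cover counting error only, and nothing ties the mice to litters.

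Groups were taken from the sample labels, and all 6 libraries entered 1 fit over all genes in R 4.3.3 with edgeR 4.0.16 (glmQLFit and glmQLFTest, TMM factors, filterByExpr with a minimum count of 10 and a minimum total of 15, no covariates), with Benjamini-Hochberg adjustment over the 17037 genes kept. Standard errors are the log2 fold change divided by the square root of F, and CPM values use TMM-scaled library sizes. Exon lengths, positions and overlaps came from the GENCODE annotation of GRCm38 and promoters from RefSeq. The fits were tested on simulated data. Alternatives were other scaling factors, other filters, edgeR's exact test, DESeq2 1.42.0, a block for the replicate number, a fit without the 400 immunoglobulin symbols, and each mouse left out in turn.

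The members and gene lists were chosen with earlier results of these data known. Values in every mouse are given for members with an adjusted p of at most 0.05 and for Cd79a, Cd79b, Ms4a1, Cd22, Cr2, Pax5, Ebf1, Btk, Prdm1 and Mzb1, and also for Vpreb3 and Cxcl13, which were added after their values were seen. Of every other list, at most 4 called genes with the largest change, or the first 2 genes if none was called, were named, and some items are not reported here. Genes named beside these (Relb, Id3, Il7r, Tnfrsf17, the muscle and macrophage genes) were also added after their values were seen.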

Additional observations from a re-analysis of the deposited data

How the results depend on the processing

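The median log2 fold change of the 32 B cell genes kept its direction in every alternative run, between 1.53 and 1.78 with all 6 mice and between 0.90 and 2.10 with 1 mouse left out. The number called higher (8), the number past both thresholds (4) and the number of other B cell genes called higher (16 of 58) changed by less than 1.5-fold with DESeq2 size factors, upper-quartile factors, a minimum of 10 counts in every library or no immunoglobulin genes. They were 24, 19 and 32 without a filter on low counts, 26, 20 and 35 with edgeR's exact test, and 22, 16 and 34 with DESeq2. Of all genes, 1401, 1486 and 1913 were called in either direction in these 3 fits, 1278 without KO4 and 933 without KO5, against 1089. With each mouse left out in turn they ranged from 0 to 21, from 0 to 18 and from 0 to 36, and the number of other B cell genes called lower (1, Id3) from 0 to 1. The cause was not tested. Bach2 changed sign without KO5, from 0.34 to -0.13, and ranged up to 0.59 without KO4. Over the alternatives for single genes, 327 values stayed on their side of the threshold, 76 gained a call, 44 lost one and 1 changed sign.

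The deviations of mice with the same number from their group means correlated at -0.03, -0.15 and -0.02 (17037 genes), so the numbers did not pair the mice. With the number as a replicate block, 0 B cell genes were called higher, 0 passed both thresholds, 0 of the 58 other genes were called in either direction, and the median log2 fold change was 1.53. In that fit 66 of all genes were called, and 27 of the 32 B cell genes had an unadjusted p under 0.05. The share of all genes at that unadjusted p was not taken for this fit, so the 27 cannot be set against it.

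With 3 mice per group and a KO5 library that stood apart, the calls of single genes rest on few mice. Fcrl5, at 20 to 57 counts per WT mouse, was the most thinly counted of the 8 genes called.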
